A study of Drosophila melanogaster with 9 samples.

Results

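The genes described here encode the adaptor and RING subunits of the cullin-RING ubiquitin ligases, together with a testis F-box protein. A total of 10 genes were named (SkpA, SkpB, SkpC, SkpD, SkpE, SkpF, Roc1a, Roc1b, Roc2 and ntc), chosen by their symbol in the annotation of the array, and the brightest probe set of each was to be used. Of these, 9 had a probe set, 1 each, among the 18769 probe sets tested, which stand for 11982 genes where they have 1 symbol, and SkpC had none under its own symbol and was not analysed here. The measured genes are 5 Skp genes, 3 Roc genes and ntc. The samples were 9 RNA samples of wild-type TEMPE T strain males aged 6 to 10 days, with 3 biological replicates from each of the apical (mitosis), middle (meiosis) and distal (post-meiosis) regions of the testis, hybridized to Affymetrix Drosophila Genome 2.0 arrays. Each replicate pooled 250 to 500 dissected testes without seminal vesicles, and no other genotype or treatment was compared. A phase is therefore a testis region enriched for its cells, which also holds germ cells of neighbouring phases and somatic cells, so that fewer cells of a type and less RNA per cell cannot be told apart. Values are the authors' log2 hybridization intensities, so that a difference of 1 stands for a doubling of intensity.

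Cullin-RING ligases attach ubiquitin to chosen proteins, which usually sends them to the proteasome. In the SCF type, the cullin Cul1 holds a small RING protein of the Roc (Rbx) family, which recruits the ubiquitin-loaded enzyme, and a Skp adaptor, which holds an F-box protein that picks the substrate. Drosophila carries several Skp and Roc paralogs, of which SkpA and Roc1a serve cells in general. In the male germline, ntc (nutcracker) encodes an F-box protein that spermatids need to activate caspases and to individualize, and a ligase of a testis form of Cul3 with the BTB protein Klhl10 and Roc1b acts in the same process. Roc1b is counted among the autosomal retrogenes of an X-linked parent, Roc1a.

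The means of the germline marker lists followed the labels of the regions, although single genes did not all do so, least of all those of spermatocytes. The mean log2 intensity of 4 spermatogonial markers (bam, bgcn, piwi and zpg) lay between 9.60 and 9.88 on the mitotic arrays, 7.52 and 7.71 on the meiotic and 6.36 and 6.46 on the post-meiotic ones. Of 5 spermatocyte markers (fzo, bol, sa, can and mia), only fzo (2.17) and bol (1.02 at its brightest probe set) rose from mitosis to meiosis. Other probe sets of bol changed by 0.29 (adjusted p = 0.152) and 0.20 (adjusted p = 0.0491). A fall was called for can (-0.35, adjusted p = 0.0042), while sa (0.11) and mia (-0.17) did not pass. The mean of the list was highest in meiosis, at 11.13 to 11.19, but can and mia were highest in mitosis. The mean of 3 spermatid markers (schuy, soti and t-cup) was highest in post-meiosis, at 11.71 to 11.75, although soti was highest in meiosis and fell in the later step (-0.38, adjusted p = 0.0048). Somatic markers were not spread evenly. For 3 genes of the muscle sheath (Mlc2, Mp20 and up) the mean was 6.46 to 7.05 in mitosis, 5.58 to 5.63 in meiosis and 8.84 to 9.24 in post-meiosis, and all 3 fell and then rose. For 4 hub and cyst cell markers (upd1, eya, tj and zfh1) it was 6.84 to 6.89, 6.22 to 6.30 and 6.17 to 6.31. Its drop came mostly from zfh1, which fell at each step (-1.76 and -0.29). eya and tj had their lowest mean in meiosis, with changes of -0.30 and -0.29 and then, not passing, 0.25 and 0.09. The dim upd1 passed in neither step. The 4 accessory gland markers (Acp26Aa, SP, Acp36DE and Acp53Ea) had a mean of 5.42 to 5.45, 5.47 to 5.66 and 4.56 to 4.71, in which Acp36DE alone passed in any comparison (-3.72 in the later step), and the 3 fat body markers (Yp1, Lsp2 and Fbp1) of 6.05 to 6.36 over all arrays. Replicates of a phase are separate biological samples, and Pearson's r between them over all probe sets was at least 0.993. Array medians lay between 6.36 and 6.54, but upper quartiles fell from 9.10 to 9.11 in mitosis to 8.28 to 8.50 in post-meiosis, so that the distributions of the deposited values were not identical between phases.

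All 9 measured genes changed at each step, and the paralogs went different ways. Going from mitosis to meiosis, 5 rose (SkpB, SkpD, SkpF, Roc1b and ntc) and 4 fell (SkpA, SkpE, Roc1a and Roc2), by limma over all 18769 probe sets with a Benjamini-Hochberg adjusted p under 0.05. Among all probe sets 50.7% were called in this comparison, 24.3% as rises and 26.3% as falls. From meiosis to post-meiosis 5 rose (SkpF, Roc1a, Roc1b, Roc2 and ntc) and 4 fell (SkpA, SkpB, SkpD and SkpE), where 65.6% of all probe sets were called, 37.8% as rises and 27.8% as falls. Between mitosis and post-meiosis 3 rose (SkpF, Roc1b and ntc), 5 fell and SkpB did not pass, where 79.1% of all probe sets were called, 49.6% up and 29.5% down. Without a test, the arrays of the phases did not overlap for any of the 9 genes at either step, which held for 64.5% of all probe sets in the earlier step (35.3% higher and 29.2% lower in meiosis) and 69.4% in the later one (41.1% higher and 28.3% lower in post-meiosis). Between mitosis and post-meiosis 8 of the 9 did not overlap, against 80.7% of all probe sets (51.1% higher and 29.6% lower in post-meiosis). All 9 genes had a mean log2 intensity of at least 6 over the arrays, and calls were more frequent among such probe sets. Of these 11135 probe sets, 8217, 9219 and 10091 were called in the 3 comparisons. Since most probe sets changed, the counts of calls say little about these genes, and their directions and sizes are given next. The 3 comparisons share arrays, each phase entering 2 of them. The median change of the 9 genes was 0.62 in the earlier step, 0.53 in the later one and -0.33 between mitosis and post-meiosis. Over all probe sets it was 0.06, 0.13 and 0.21, and over those with a mean of at least 6 -0.01, -0.03 and -0.0048. Each median of the 9 is the value of a single gene (SkpB, Roc1a and Roc2 in turn), so it does not stand for a shift of the group. Of the X-linked genes (SkpA, SkpD, SkpE and Roc1a), 3 fell from mitosis to meiosis and SkpD rose. Of the 5 autosomal genes, 4 rose and Roc2 fell. Over all X-linked probe sets, 34.7% fell and 22.7% rose in this step, and over autosomal ones 31.4% fell and 28.9% rose. In the later step Roc1a rose and the other 3 X-linked genes fell, whereas SkpB fell and the other 4 autosomal genes rose. Rises and falls were then 39.9% and 30.7% of X-linked probe sets and 36.4% and 34.4% of autosomal ones. With 9 genes, nothing about the chromosomes can be read from these counts.

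**Figure D1:**
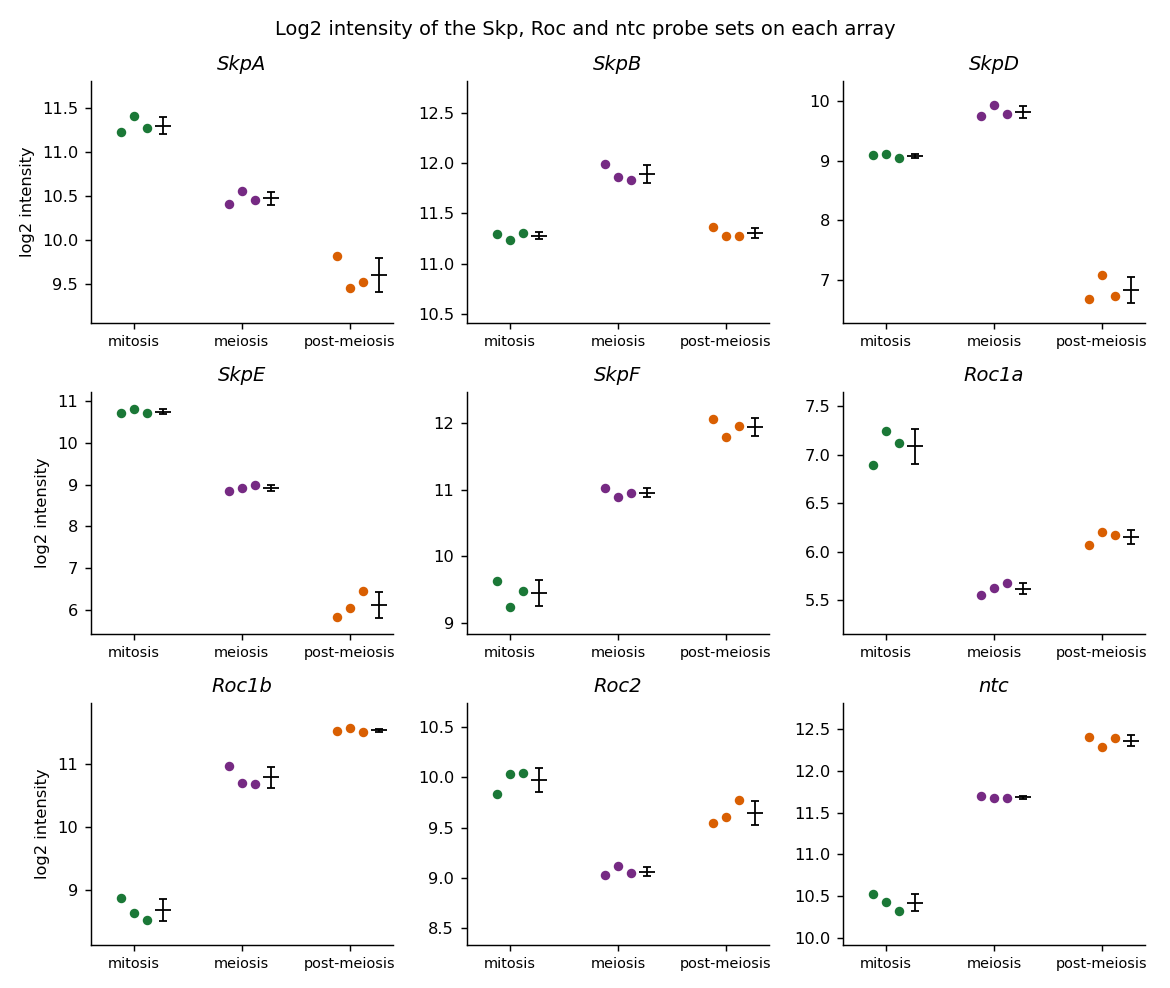
Log2 intensity (y axis, a separate range for each gene) of the 9 measured genes on each of the 3 arrays of mitosis, meiosis and post-meiosis (x axis); points are arrays, and the black mark is the mean with its SD (n = 3). SkpF, Roc1b and ntc are highest in post-meiosis, SkpA and SkpE in mitosis, and SkpB and SkpD in meiosis, while Roc1a and Roc2 are lowest in meiosis.

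**Figure D2:**
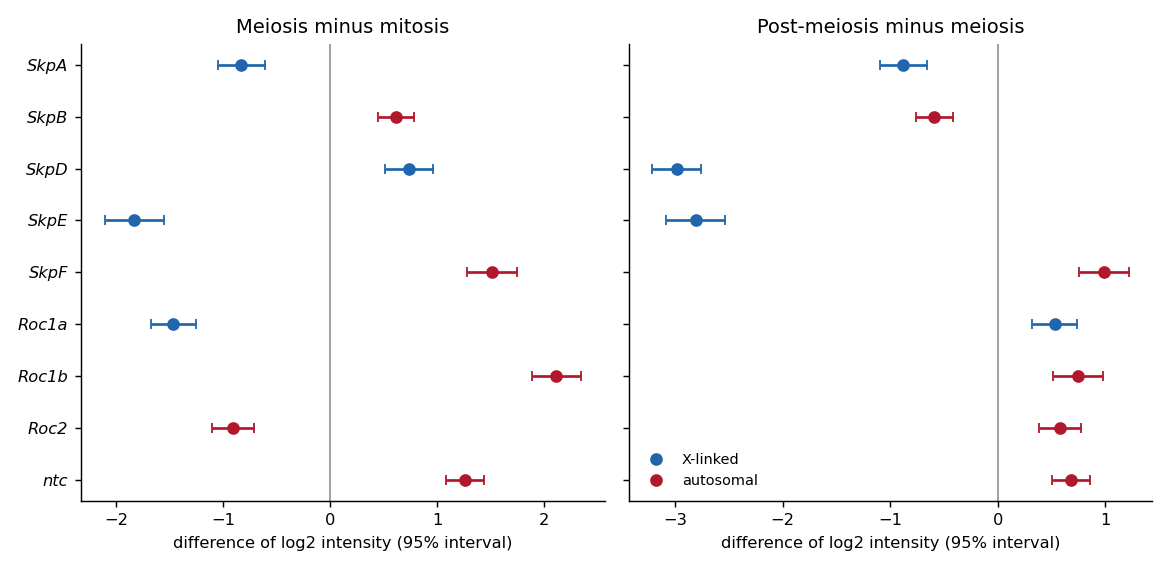
Difference of log2 intensity (x axis) for each gene (y axis), with meiosis minus mitosis on the left and post-meiosis minus meiosis on the right; bars are 95% intervals from limma, blue stands for X-linked and red for autosomal genes. In both panels the interval of each gene lies clear of 0, from -1.83 for SkpE to 2.11 for Roc1b on the left.

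SkpA, the adaptor found in SCF ligases of most fly tissues, fell at each step. The 3 mitotic arrays read 11.23, 11.41 and 11.27 on the log2 scale, the meiotic arrays 10.41, 10.56 and 10.46, and the post-meiotic arrays 9.81, 9.46 and 9.52. No phase overlapped another. SkpA changed by -0.83 (SE 0.10, adjusted p = 1.1e-05) in the earlier step and by -0.88 (SE 0.10, adjusted p = 5.4e-06) in the later one, or by -0.51 with cyclic loess between arrays, another scaling. Over both steps its intensity became 3.27-fold lower. The probe set of SkpA carries the suffix that Affymetrix gives to probes shared by several transcripts, whereas the other 8 genes have a probe set without it.

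SkpF was the Skp paralog that rose throughout. On the mitotic arrays its log2 intensity was 9.62, 9.24 and 9.48, on the meiotic ones 11.03, 10.89 and 10.95, and on the post-meiotic ones 12.07, 11.80 and 11.96. The lowest array of each later phase lay above the highest of the phase before it. The change was 1.51 (SE 0.11, adjusted p = 7.2e-08) and then 0.98 (adjusted p = 2.8e-06), a total of 5.63-fold. A rise from mitosis to meiosis at least as large was found for 3.12% of all probe sets.

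SkpB peaked in meiosis by a small margin. Mitotic arrays gave log2 intensities of 11.30, 11.23 and 11.30, meiotic arrays 11.99, 11.86 and 11.83, and post-meiotic arrays 11.36, 11.27 and 11.28. Each meiotic array lay above all others, whereas mitosis and post-meiosis overlapped. The rise was 0.62 (SE 0.08, adjusted p = 1.5e-05) and the later change -0.59 (adjusted p = 1.9e-05), which cyclic loess made 0.36 and -0.35. Between mitosis and post-meiosis the difference was 0.03 (95% interval -0.14 to 0.20, adjusted p = 0.762).

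SkpD and SkpE are X-linked and lie in a row with SkpC between them, with no other gene in that stretch in the RefSeq table of Release 6. For SkpD the mitotic arrays read 9.09, 9.11 and 9.04 on the log2 scale, the meiotic arrays 9.74, 9.93 and 9.78, and the post-meiotic arrays 6.69, 7.08 and 6.74. It thus had its highest values in meiosis, with no overlap between phases. It rose by 0.74 (SE 0.10, adjusted p = 4.3e-05) and then changed by -2.98 (SE 0.10, adjusted p = 4.6e-11), a 7.91-fold lower intensity in post-meiosis than in meiosis. A fall of that size or larger was found for 1.90% of all probe sets. SkpE read 10.71, 10.81 and 10.71 on the mitotic arrays, 8.84, 8.93 and 8.98 on the meiotic arrays, and 5.83, 6.05 and 6.45 on the post-meiotic arrays. It was lower in each phase than in the one before, again without overlap. Its change was -1.83 (SE 0.13, adjusted p = 6.8e-08) and then -2.81 (adjusted p = 4.9e-10), together 24.9-fold, and 72 probe sets of 18769 fell as much or more between mitosis and post-meiosis. On the 3 post-meiotic arrays SkpE was below the median of its array.

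Roc1a, the RING subunit that serves Cul1 ligases in most tissues, and its retrogene Roc1b moved in opposite directions from mitosis to meiosis. Roc1a had log2 intensities of 6.89, 7.24 and 7.12 on the mitotic arrays, 5.56, 5.63 and 5.68 on the meiotic arrays, and 6.07, 6.21 and 6.17 on the post-meiotic arrays. Each phase stood apart from the others, with meiosis the lowest, and only the mitotic arrays lay above the median of their array. Roc1a changed by -1.46 (SE 0.10, adjusted p = 3.9e-08) and then rose by 0.53 (SE 0.10, adjusted p = 3.1e-04), or by 0.26 (adjusted p = 0.0299) with cyclic loess between arrays. In post-meiosis it was 1.91-fold lower than in mitosis. Roc1a lies on the X next to SkpA with 1 gene between them in that table. For Roc1b the mitotic arrays read 8.88, 8.64 and 8.52, the meiotic arrays 10.98, 10.71 and 10.69, and the post-meiotic arrays 11.53, 11.57 and 11.52. All meiotic arrays were above all mitotic ones and below all post-meiotic ones. Roc1b rose by 2.11 (SE 0.11, adjusted p = 6.7e-09), or 4.32-fold, and then by 0.75 (adjusted p = 3.7e-05), or by 1.13 with cyclic loess. Only 32 of the 18769 probe sets, Roc1b included, rose as much or more from mitosis to meiosis.

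Roc2, whose mammalian counterpart RBX2 pairs with Cul5, also was lowest in meiosis. Its mitotic arrays read 9.84, 10.04 and 10.05 on the log2 scale, the meiotic arrays 9.03, 9.12 and 9.05, and the post-meiotic arrays 9.55, 9.60 and 9.78. Meiotic arrays were below all others, and post-meiotic ones lay just under the lowest mitotic one. The change was -0.91 (SE 0.09, adjusted p = 1.5e-06) and then 0.58 (adjusted p = 8.6e-05), or 1.04 with cyclic loess. Between mitosis and post-meiosis it was -0.33 (SE 0.09, adjusted p = 0.0049), but 0.28 (adjusted p = 0.0295) with cyclic loess between arrays, so that this direction depends on the scaling. The later rise of Roc1a and that of Roc2 occurred together with those of the 3 sheath muscle markers, which changed by 3.06 (Mp20), 3.14 (up) and 4.0 (Mlc2), and their earlier falls together with changes of -0.94 (Mp20), -1.29 (up) and -1.31 (Mlc2). The part of sheath cells in the values of Roc1a and Roc2 was not tested.

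The F-box gene ntc rose at each step. On the mitotic arrays its log2 intensity was 10.52, 10.43 and 10.31, on the meiotic ones 11.70, 11.67 and 11.67, and on the post-meiotic ones 12.41, 12.29 and 12.39. The 3 phases were far apart compared with the spread of their replicates, which had an SD of 0.10, 0.02 and 0.07 (n = 3). The change was 1.26 (SE 0.08, adjusted p = 3.3e-08) and then 0.68 (adjusted p = 6.5e-06), a total of 3.84-fold.

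The change of each paralog was next set against that of the general gene of its family, array by array, in which a constant difference of level cancels. Roc1a, the reference for Roc1b and Roc2, read 5.56 to 5.68 on the meiotic arrays, whose lower quartiles were 5.12 to 5.17. Whether so low a level narrowed its changes was not tested. Of the 6 pairs formed with SkpA or Roc1a, each compared over 3 pairs of phases, and the pair of SkpD and SkpE added after their values were seen, 21 differences were tested by a two-sided exact permutation test, whose smallest p with 3 arrays against 3 is 0.1. After Benjamini-Hochberg adjustment over the 21 tests the lowest adjusted p was 0.124, so that no difference was called and each is given with its SE. From mitosis to meiosis Roc1b moved 3.58 higher than Roc1a (SE 0.23), an 11.9-fold difference of change, and from mitosis to post-meiosis 3.80 higher (SE 0.20). Over the step to post-meiosis alone they overlapped, with a difference of 0.22 (SE 0.13, exact p = 0.3). Roc2 fell less than Roc1a from mitosis to meiosis, by 0.56 (SE 0.06), and differed from it by 0.05 (SE 0.07, exact p = 0.5) in the later step. Both later-step differences depended on the scaling, since with cyclic loess between arrays Roc1b moved 0.87 (SE 0.13, exact p = 0.1) and Roc2 0.78 (SE 0.13, exact p = 0.1) above Roc1a.

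Among the Skp genes, SkpF moved furthest above SkpA, by 2.34 (SE 0.19) in the earlier step and 1.86 (SE 0.10) in the later one, a sum of 4.20 (SE 0.18). SkpB moved 1.45 (SE 0.11) above SkpA in the earlier step, whereas in the later one the arrays overlapped, with a difference of 0.29 (SE 0.12, exact p = 0.2; 0.16 with cyclic loess). SkpD moved 1.57 (SE 0.05) above SkpA and then 2.11 below it (difference -2.11, SE 0.22). SkpE moved below SkpA in both steps, with differences of -1.0 (SE 0.05) and -1.93 (SE 0.27). The clustered neighbours SkpD and SkpE parted in the earlier step by 2.57 (SE 0.07), without overlap of the arrays. In the later step they differed by -0.17 (SE 0.23, exact p = 0.7).

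**Figure D3:**
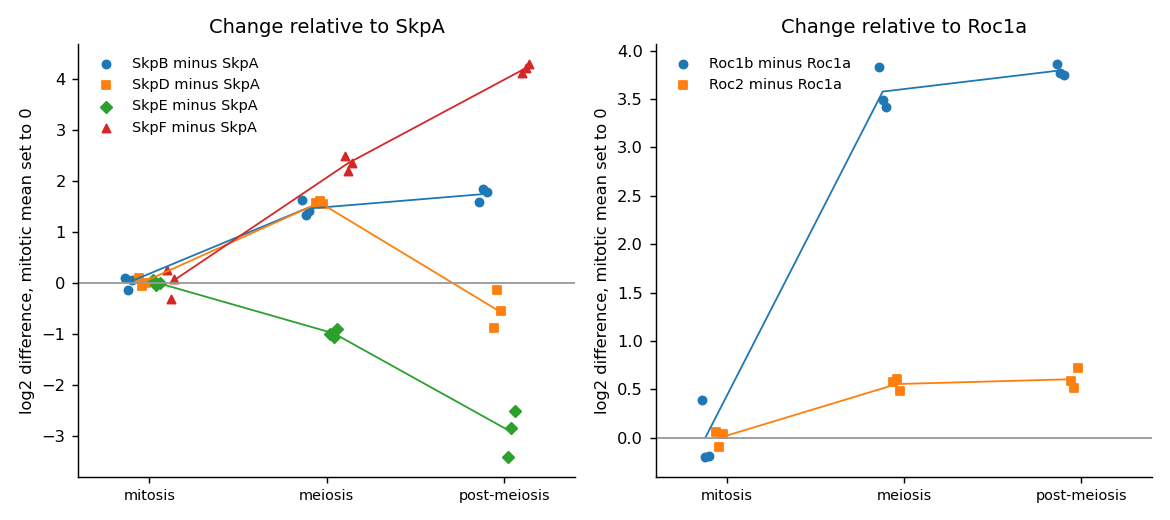
Log2 difference between each paralog and SkpA (left) or Roc1a (right) on the same array (y axis, the mean of the 3 mitotic arrays set to 0) over the phases (x axis); points are arrays and lines join phase means. SkpF minus SkpA reaches 4.20 and Roc1b minus Roc1a 3.80 in post-meiosis, while SkpE minus SkpA reaches -2.93.

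The cullins that these subunits serve also went different ways. Cul3, which joins BTB proteins to Roc1, rose at each step, by 0.48 (SE 0.08, adjusted p = 2.7e-04) and 0.35 (adjusted p = 0.0026) at its brightest probe set, and by 1.59 and 1.01 at its other probe set. Which transcript of Cul3 either probe set reads was not analysed here. Cul1, the scaffold of SCF, changed by -0.67 and then rose by 0.74, from 9.74 ± 0.04 (SD, n = 3) through 9.07 ± 0.02 to 9.81 ± 0.05, lowest in meiosis as were Roc1a, Roc2 and the sheath markers. Cul4 fell at each step (-1.34 and -2.15), Cul5 had a change of -0.08 (adjusted p = 0.528) and then fell by 1.48, and Cul2 fell by 0.23 (adjusted p = 0.0461) and did not pass in the later step (0.11, adjusted p = 0.273). Of the 5 cullins 1 rose, 3 fell and 1 did not pass in the earlier step. In the later one 2 rose, 2 fell and 1 did not pass. Among all probe sets 24.3% rose and 26.3% fell in the earlier step, and 37.8% rose and 27.8% fell in the later one.

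Other genes of the pathway mostly fell. Of 61 genes in 7 lists (cullins included), 51 had a probe set, and of these 8 rose, 34 fell and 9 did not pass from mitosis to meiosis, with a median of -0.54, where 24.3% of all probe sets rose and 26.3% fell (median 0.06). In the later step 14 rose, 29 fell and 8 did not pass (median -0.61), where 37.8% of all probe sets rose and 27.8% fell (median 0.13). Falls were more common among brighter probe sets, to which most genes of the lists belong. Of the 11135 probe sets with a mean of at least 6, 3701 rose and 4516 fell in the earlier step, and 4359 rose and 4860 fell in the later one. The counts of each list below are to be read against the same shares and counts. The COP9 signalosome, which removes NEDD8 from cullins, was the most even: all 8 subunits fell in the earlier step (median -0.78) and 7 in the later one (median -1.52), with changes there of -2.39 for CSN6, -2.0 for CSN2, -1.84 for CSN5, the catalytic subunit, and -1.63 for CSN3. CSN7 had a change of 0.18 (adjusted p = 0.185) in that step. Of 8 genes that attach or remove NEDD8 or exchange cullin partners, 2 rose, 3 fell and 3 did not pass, and then 1 rose, 4 fell and 3 did not pass. Nedd8 itself changed by -0.99 and -0.66, Uba3, a subunit of its activating enzyme, by -0.44 and -2.16, and the NEDD8 protease gene Den1 by -0.60 and -0.61, whereas the cullin neddylation factor SCCRO3 rose by 0.34 and 0.58.

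Of the 12 other F-box genes measured, 2 rose, 7 fell and 3 did not pass from mitosis to meiosis (median -0.55), and 2 rose, 9 fell and 1 did not pass in the later step (median -1.49). Between mitosis and post-meiosis 11 of 12 fell and 1 rose (median -2.0), where 29.5% of all probe sets fell and 49.6% rose, and ntc rose by 1.94. Of the 11135 probe sets with a mean of at least 6, 10091 were called in that comparison, 49.3% of the calls being rises. The largest falls of the later step were those of pall (-3.27), an F-box gene of phagocytosis in hemocytes, ago (-2.65), which targets Cyclin E and Myc, FBXO11 (-2.41) and Fsn (-2.15), a synaptic F-box gene. ago and Fsn had first risen, by 0.48 and 0.32. slmb, the F-box partner in degradation of Ci and Armadillo, changed by -1.89 and then rose by 1.55, named here after its values were seen.

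**Figure D4:**
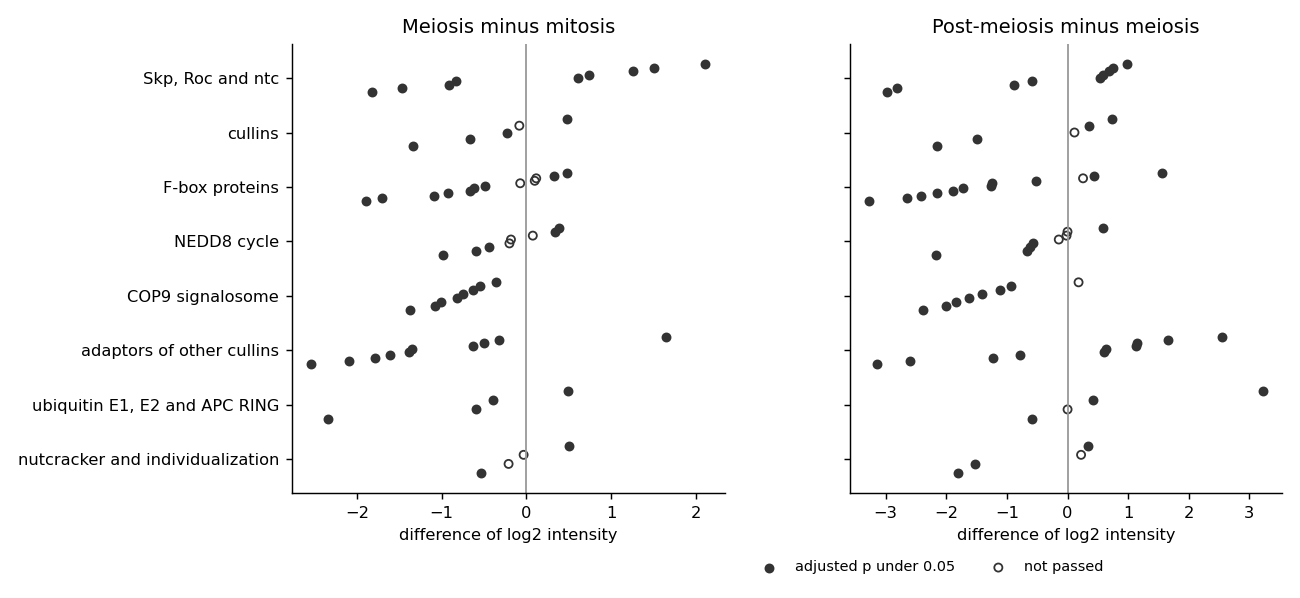
Difference of log2 intensity (x axis) for meiosis minus mitosis (left) and post-meiosis minus meiosis (right), with a row for the 9 genes described and for each of 7 pathway lists (y axis); each circle is a gene at its brightest probe set, filled where the adjusted p was under 0.05. All 8 COP9 signalosome genes lie below 0 on the left, and the Skp, Roc and ntc genes lie on both sides in both panels.

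Substrate adaptors of the other cullins fell with 1 exception in the earlier step. Of 10 measured, klhl10, the BTB partner of Cul3 in spermatids, rose by 1.65 and then by 1.14 (named after its values were seen), and 9 fell from mitosis to meiosis (median -1.36). In the later step 6 of the 10 rose and 4 fell. The Ddb1 gene pic, the adaptor of Cul4, changed by -1.35 and -3.14, and the BTB gene KLHL18 by -0.63 and -2.60. The BTB gene rdx, which targets Ci, changed by -2.54 and 2.55, but by 0.81 and -0.30 at its other probe set, and gus, a SOCS box gene, by -2.10 and 1.65. Of 4 ubiquitin-conjugating enzyme genes, ben changed most, by -2.34 and 3.22, CG7656 by -0.59 and 0.42, and Ubc6 by -0.40 and -0.59 at its brightest probe set (0.12, adjusted p = 0.529, and 0.35 at a dim other one), while vih, the E2 of the anaphase-promoting complex, rose by 0.50 and then had a change of 0.00 (adjusted p = 0.996). At their brightest probe sets slmb, rdx, gus, ben and CG7656, and also Vhl, inc and dbo, fell and then rose, as did the sheath muscle markers. Fbl6, CSN7, Cul2 and Bruce had their lowest mean in meiosis too, without a call in the later step. Between mitosis and post-meiosis Vhl (-1.01), inc (-1.15), gus (-0.44) and slmb (-0.34) fell. At its other probe set inc changed by -0.37 and 0.44 in the steps and by 0.07 (adjusted p = 0.598) between mitosis and post-meiosis. In that comparison ben rose (0.88), as did the muscle markers, and rdx, dbo and CG7656 did not pass. The share of all probe sets lowest in meiosis was not counted, and the part of sheath cells in these values was not tested.

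Among the measured genes that work with ntc in individualization, PI31, which encodes a proteasome regulator bound by the Nutcracker protein, rose by 0.50 and 0.34, from 11.40 ± 0.04 (SD, n = 3) in mitosis to 12.25 ± 0.04 in post-meiosis. The caspase inhibitor gene Bruce had changes of -0.21 (adjusted p = 0.129) and 0.22 (adjusted p = 0.0852). The initiator caspase gene Dronc had a change of -0.03 (adjusted p = 0.815) and then fell by 1.52, and its activator Dark changed by -0.54 and -1.80.

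**Figure D5:**
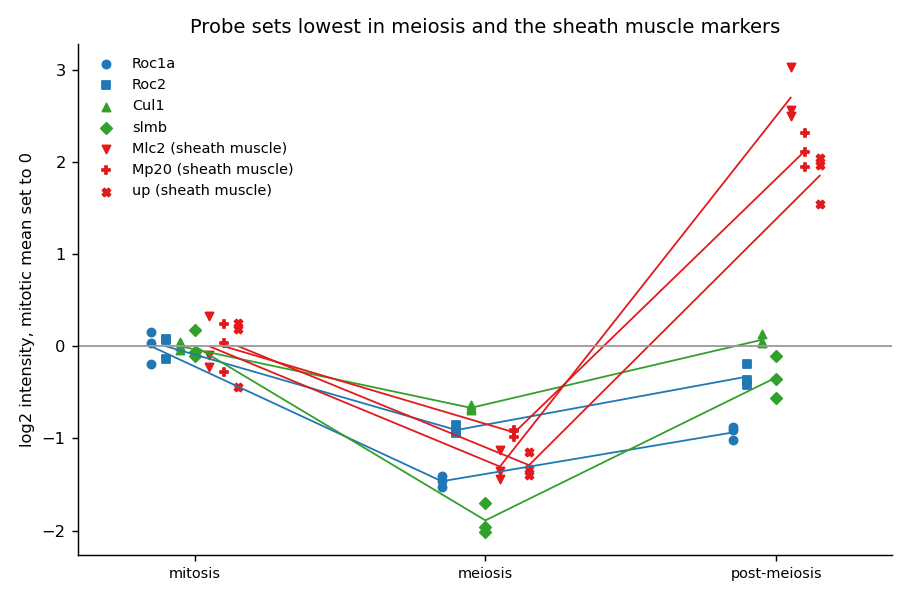
Log2 intensity of Roc1a, Roc2, Cul1 and slmb and of the sheath muscle markers Mlc2, Mp20 and up (y axis, the mitotic mean of each gene set to 0) over the phases (x axis); points are arrays (n = 3) and lines join phase means. Roc1a, Roc2, Cul1 and slmb were chosen for being lowest in meiosis, where the muscle markers are lowest too. In post-meiosis the muscle markers lie above their mitotic mean, and Cul1 is at 0.07, Roc2 at -0.33, slmb at -0.34 and Roc1a at -0.94. The part of sheath cells in these values was not tested.

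The genes with the most similar profiles were sought for the 7 members whose phase means spanned at least 1, as the smallest root mean square difference of the 9 values after each probe set was centred on its own mean. Pearson's r with the member over the 9 arrays was at least 0.989 for all genes named here, which mostly reflects 3 phases shared by 9 arrays and carries no test. Closest to Roc1b were CG32117 (root mean square difference 0.073), PpY-55A (0.093), a protein phosphatase gene of the testis, and CG32988 (0.105). For SkpF they were CG13186 (0.054), CG12914 (0.069) and CG9173 (0.071), and for ntc Zip99C (0.056), CG3517 (0.057) and CG16894 (0.058). SkpA was closest to Hacd2 (0.062), Nfs1 (0.063), a cysteine desulfurase gene, and slpr (0.064), a kinase gene of JNK signalling. SkpD was closest to CG12857 (0.061), with changes of 0.69 and -2.96, to Nelf-E (0.097), a subunit of the factor that pauses RNA polymerase II, and to NSD (0.114). SkpE had less close neighbours, CG32625 (0.137), RpS5b (0.205), a ribosomal protein paralog, and CG6324 (0.239). For Roc1a they were CG1812 (0.085), CG31122 (0.096) and angel (0.108).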

How the data were processed

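The deposited values are log2 hybridization intensities per probe set, for which the authors used RMA in R (background correction, then normalization of quantiles), each replicate on its own array. The scanner files were not used here. Of 18952 probe sets, 183 controls were left out. The annotation of the array gives 1 symbol to 13647 of the others, several to 402 and none to 4720, and 13544 of those with 1 symbol matched the RefSeq gene table (Release 6) by gene ID, which gave current symbols and chromosome arms. The number of arrays limits the precision.

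Phase differences came from limma 3.58.1 under R 4.3.3 (functions lmFit and eBayes), 1 fit over 9 arrays, two-sided, Benjamini-Hochberg adjusted over 18769 probe sets with a threshold of 0.05. The model of the methods classes probe sets by differences of phase means without the spread of a gene's replicates, so it was not used. Paralogs were compared by exact permutation tests with scipy 1.17.1. Tables were handled with pandas 2.3.3 and numpy 2.4.6 in Python 3.11.15, and figures drawn with matplotlib 3.10.9. The limma step was tested on simulated data.

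The members and the gene lists were chosen with earlier results of these data known. Genes named are all members, all cullins, up to 4 genes of each other list with the largest absolute change in either step, and 3 genes of most similar profile for each member whose phase means span at least 1. Outside this rule slmb, klhl10, CSN7, Fbl6, Vhl, inc and dbo were named after their values were seen. Alternatives were arrays centred on their median, cyclic loess, a filter at a mean log2 intensity of 6, a trended robust prior, a replicate block, the 6 arrays compared alone and leaving out each array. Listed genes not analysed here included ppa, Kdm2, EloC, Uba1, eff, Ubc10, lmgA, Cyt-c-d and Drice, and of the markers whip, Fas3 and Mhc. No sequences are shown.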

Additional observations from a re-analysis of the deposited data

How the results depend on the processing

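The counts of Skp, Roc and ntc genes that rose and fell were 5 and 4, 5 and 4, and 3 and 5 in the 3 comparisons under every alternative, with each array left out in turn included, except that cyclic loess gave 4 and 4 between mitosis and post-meiosis, where Roc2 turned. No member was lost to the filter at 6. The direction turned for SkpB between mitosis and post-meiosis with centred arrays (-0.057) and without post-meiosis replicate 1 (-0.0024, with a range of -0.0024 to 0.042 over the left-out arrays), where it passed no test, and for Roc2 between mitosis and post-meiosis with cyclic loess (0.28). Without post-meiosis replicate 3 the later-step difference of Roc2 and Roc1a was -0.0057, and the range over the left-out arrays was -0.0057 to 0.099. With cyclic loess it was 0.78, and that of Roc1b and Roc1a 0.87. The later-step difference of SkpD and SkpE was 0.044 without post-meiosis replicate 3, with a range of -0.33 to 0.044. Cyclic loess kept the other calls but moved some sizes: in the later step to 0.26 for Roc1a, 1.04 for Roc2, 1.13 for Roc1b, -0.51 for SkpA and -0.35 for SkpB, to 0.36 for SkpB in the earlier step, and to -1.45 for SkpD between mitosis and post-meiosis. Of all probe sets, the 7100 rises of the later step became 4565 with centred arrays and 4359 with the filter at 6, and the 9309 rises between mitosis and post-meiosis became 5873 with cyclic loess and 4973 with the filter, where 11135 probe sets were tested. Over all probe sets the median change went from 0.13 to -0.02 (centred) and 0.01 (loess) in the later step and from 0.21 to 0.01 (loess) between mitosis and post-meiosis. Rises were 48.0% of calls in the earlier step (56.7% centred), 57.7% in the later one (43.0% centred) and 62.7% overall (50.3% with loess). With the replicate block 5 members rose and 4 fell in each step, and the pathway lists had 8 rises and 34 falls, then 14 and 29. Of 9 same-numbered pairs of arrays 1 had a correlation of deviations over 0.1 (-0.086 to 0.36), and 3 of 9 arrays correlated best with their own number. The highest was that of mitosis 1 with meiosis 1, and the other same-numbered pairs of these phases had 0.09 and 0.06. These values do not settle whether replicate numbers pair the samples. The cause of these shifts was not tested.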
